A study of Mus musculus with 12 samples.

Results

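In wounded mouse keratinocytes, mRNAs caught near the desmosome while being translated were compared with the translated mRNAs left behind. The comparison used 6 of the 12 libraries of the series, 3 of the cortical and 3 of the total translatome, chosen by their labels. It covered 13571 genes tested of 54532 listed, of which 11502 were protein coding, and 19180 genes had a count in at least 1 wounded library. The cells, of genotype WT DP-BirA(1-584), made the desmoplakin piece DP(1-584) fused to the biotin ligase BirA after doxycycline at 2 µg/mL, were given calcium to differentiate, and were wounded and then pulsed with biotin for 16 h. Unwounded cells received the same fusion, doxycycline, calcium and biotin, so no group lacked the ligase. Translating material from a sucrose gradient was then incubated with neutravidin resin, which captures biotin. What the resin captured gave the cortical fraction, and what it left gave the fraction called total, which is therefore depleted of cortical RNA.

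Desmosomes join neighbouring epithelial cells, and desmoplakin ties their cadherins and plakoglobin to the keratin filaments below the membrane. A biotin ligase placed there tags proteins in its neighbourhood, and ribosomes at work on an mRNA can be pulled down with that mRNA. In the epidermis a wound loosens junctions at its edge, where keratinocytes spread and move over new matrix.

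Total counts were 14925284 to 23402144 in the 6 wounded libraries. Wounded total replicate 1 stood apart from the others. The genes detected in it numbered 13117, while the other 5 wounded libraries had 14393 to 16330, and 32.7% of its genes with an expected 10 to 20 counts were at 0, against 13.1% to 23.6%. The number of calls, and the counts of each gene list, are therefore also given without that library. All 13 keratinocyte markers were tested, and their summed level was 8901 to 10560 FPKM (fragments scaled by gene length and library size) in the total and 10495 to 10674 in the cortical libraries. Fibroblast markers summed to at most 0.679 FPKM, with Lum, Twist2, Dcn and Thy1 at 0 in all 6. Melanocyte markers summed to at most 1.99 FPKM, with Mlana, Sox10, Dct, Tyrp1 and Tyr at 0, and endothelial markers to at most 0.304, with Tek and Cdh5 at 0. Immune markers summed to 34.4 to 46.8 FPKM in the total and 25.7 to 30.3 in the cortical libraries, nearly all of it Cd68, a lysosomal protein that other cells also make; Cd3e, Itgam, Lyz2 and Csf1r were at 0.

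Of the 13571 genes, 2124 differed between the cortical and total fractions (15.7%; edgeR quasi-likelihood test, Benjamini-Hochberg adjusted p under 0.05). Cortical levels were higher for 1034 genes (7.62%) and lower for 1090 (8.03%). The differences were modest: the median fold was 1.53 among the higher and 1.55 among the lower genes, and 143 and 105 genes reached 1 log2 unit. In CPM, counts scaled to the library size, the 3 cortical and 3 total libraries did not overlap for 1011 of the higher and 952 of the lower genes, where 29.2% of all genes tested had libraries that did not overlap. Without wounded total replicate 1 the calls rose to 3475 of 14073 genes (24.7%), 1697 higher and 1778 lower, and these held 933 of the 1034 and 1045 of the 1090 genes in the same direction. The split between directions rests on the scaling: by library size alone 2203 genes were higher and 520 lower, and the median of all genes moved by 0.211 log2 units. The levels are relative, so the amount of RNA in each fraction cannot be told from them. In bulk libraries, neither can the share that each cell gave to a fraction.

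**Figure D1:**
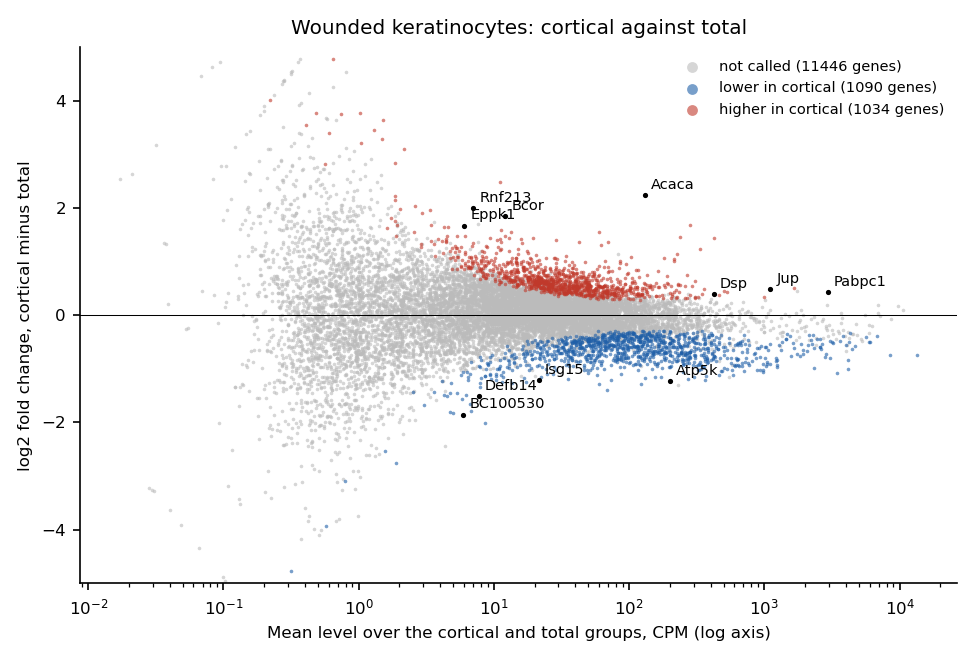
Mean level of each gene over the cortical and total groups (CPM, log axis) against its log2 fold change, cortical minus total, in wounded keratinocytes; each point is a gene, and 42 genes lie beyond the vertical range of -5 to 5. Called genes above 0 number 1034 and those below 0 number 1090, and Acaca lies highest among the labelled genes.

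Acaca, the acetyl-CoA carboxylase that starts fatty acid synthesis, had the largest rise among protein-coding genes that averaged at least 100 counts and passed the naming rule. Its total libraries read 44.3, 40.4 and 53.3 CPM and its cortical libraries 236, 203 and 210 CPM. The groups lay far apart, a log2 fold change of 2.23 (SE 0.12, edgeR adjusted p = 1.24e-08), and 2.21 without wounded total replicate 1. Acaca belongs to the few enzymes that carry biotin naturally, on the lysine of a methionine-lysine-methionine motif, put there by the ligase Hlcs. Because neutravidin binds biotin from any source, the coding sequence around that motif is shown for the 4 tested carboxylases that hold it, from GENCODE M21 (GRCm38), 5′ to 3′, with the motif in capitals.
Acaca: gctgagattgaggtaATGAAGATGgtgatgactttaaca
Pcx: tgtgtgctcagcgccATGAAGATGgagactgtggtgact
Pcca: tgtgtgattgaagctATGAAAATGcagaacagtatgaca
Mccc1: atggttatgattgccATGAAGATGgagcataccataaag
The search took ATGAAGATG or ATGAAAATG in frame on the coding strand, and 2.2% of 21523 complete coding sequences held a match.

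The genes lie at chr11:84129672-84401651 (Acaca, plus strand), chr19:4510472-4621752 (Pcx, plus), chr14:122534324-122891100 (Pcca, plus) and chr3:35959312-36000678 (Mccc1, minus). In Acaca the motif starts at codon 784, with 1559 codons still to be translated after it. It lies near the end in the others, with 33 codons left in Pcx, 33 in Pcca and 39 in Mccc1. Of the 7 carboxylase and ligase genes tested, 3 were higher and 0 lower, with a median log2 fold change of 0.64 against 0.04 over all genes tested.

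Mccc1, of leucine breakdown, rose from 4.33, 5.22 and 4.6 CPM in total to 7.82, 7.99 and 10.2 CPM in cortical libraries (log2 fold change 0.88, SE 0.25, edgeR adjusted p = 0.0256). Pcca, of propionate breakdown, rose from 15.1, 15.6 and 17.5 to 26.2, 25.2 and 23.5 CPM (0.64, SE 0.16, adjusted p = 0.0149). Neither gene's libraries overlapped. Pcx, which makes oxaloacetate from pyruvate, gave 0.56 (SE 0.20, adjusted p = 0.0728), and the ligase gene Hlcs 0.89 (SE 0.33, adjusted p = 0.0803). The subunits without the motif gave 0.63 (Mccc2, SE 0.25, adjusted p = 0.103) and -0.01 (Pccb, SE 0.22, adjusted p = 0.984). Of all tested genes with a complete coding sequence and an in-frame match, 46 of 284 were higher (16.2%) and 13 lower (4.58%). In genes without a match 8.66% were higher and 8.76% lower. But the median coding length was also longer with a match, 2471 bases against 1371 in genes without one. The part of natural biotin in these values was not tested.

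The other leading cortical mRNAs came from genes of varied function. Rnf213, a very large ubiquitin ligase, read 1.96, 3.59 and 2.88 CPM in total and 14.1, 7.48 and 12.2 CPM in cortical libraries (log2 fold change 2.00, SE 0.29, edgeR adjusted p = 0.000509). Ppp1r9b, or spinophilin, which brings protein phosphatase 1 to actin, read 140, 117 and 142 CPM against 436, 412 and 437 CPM (1.69, SE 0.11, adjusted p = 2.04e-07). Each cortical library exceeded each total library in both, as the naming rule required. Cep170b, a microtubule-associated protein, read 121, 116 and 147 CPM against 324, 364 and 363 CPM (1.45, SE 0.11, adjusted p = 1.81e-06). The ankyrin repeat gene Ankrd52 had a log2 fold change of 1.44 (SE 0.24) and the receptor Lrp12 1.47 (SE 0.33). Prune2 gave 1.54 (SE 0.13), Ahdc1 1.54 (SE 0.20), Zbtb18 1.48 (SE 0.21), Zfp280b 1.47 (SE 0.28) and Morc2a 1.44 (SE 0.25). For all genes of this paragraph the naming rule itself required cortical libraries above all total ones.

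Desmosome and plakin genes, the fusion's own surroundings, were on the cortical side. Of 19 tested, 9 rose and 0 fell, with a median log2 fold change of 0.42. The strongest were plakins, the giant linkers between junctions and the cytoskeleton. Eppk1, or epiplakin, read 3.32, 2.86 and 2.45 CPM in total and 7.21, 11.6 and 8.82 CPM in cortical libraries (log2 fold change 1.67, SE 0.27, edgeR adjusted p = 0.000982). Plec, or plectin, read 37.9, 38 and 41.7 against 102, 93.6 and 106 CPM (1.36, SE 0.11, adjusted p = 1.81e-06). Evpl, or envoplakin, a cornified envelope precursor, read 140, 133 and 149 against 271, 320 and 282 CPM (1.05, SE 0.11, adjusted p = 6.58e-05). None of these groups overlapped, which the naming rule had required of Eppk1.

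Macf1, which links actin and microtubules, rose by 0.99 log2 units, the desmosomal cadherin Dsc3 by 0.56, Dst by 0.50, Jup by 0.48 and Dsg1a by 0.44. Jup, or plakoglobin, was among the most abundant risers, at 967, 910 and 880 CPM in total and 1304, 1239 and 1310 CPM in cortical libraries. Dsp itself read 359, 359 and 379 CPM in total and 488, 468 and 481 CPM in cortical libraries, a log2 fold change of 0.39 (SE 0.10, edgeR adjusted p = 0.018). Its libraries did not overlap, but with the gene length trend removed, as described below, the value was 0.11 (adjusted p = 0.503). Reads of the fusion's own mRNA, which carries a part of desmoplakin, cannot be told apart from those of Dsp.

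**Figure D2:**
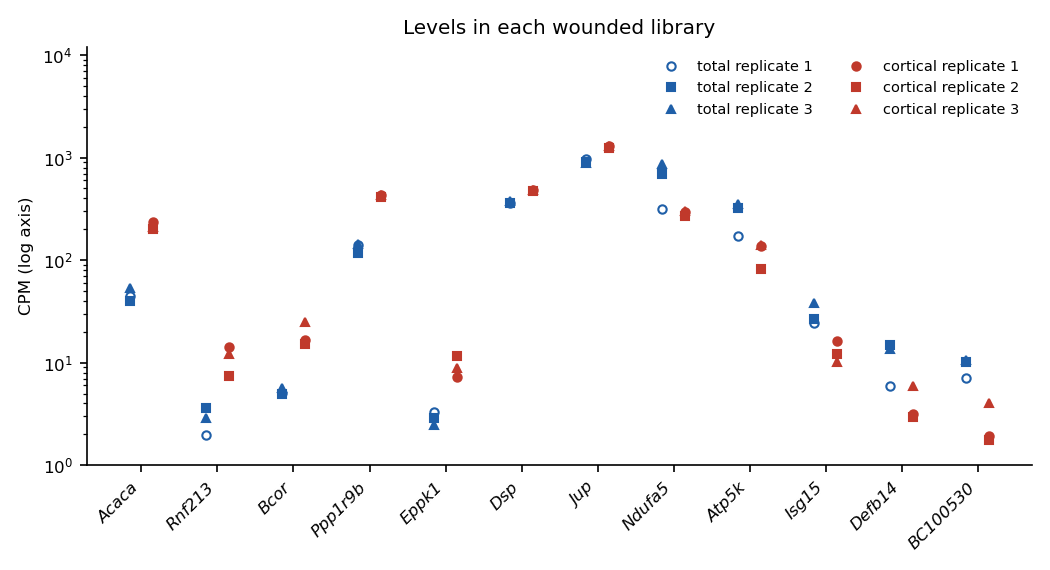
Level of 12 genes in each of the 6 wounded libraries (CPM, log axis), with total libraries in blue, cortical libraries in red and total replicate 1 as an open circle. Acaca to Jup are higher in all cortical libraries, and for Ndufa5 total replicate 1, at 313 CPM, lies near the cortical 273 to 305 CPM while the other total libraries are at 691 and 876 CPM.

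Other junction and matrix lists differed in how many members rose. Over all genes tested 7.62% rose and 8.03% fell. Of 20 tight junction and angiomotin genes, 6 rose and 0 fell (median 0.29). They included Cgn, or cingulin, a junction plaque protein, at 24.5, 21.8 and 19.9 CPM in total and 32.7, 41.9 and 35.1 CPM in cortical libraries (log2 fold change 0.73, SE 0.15, edgeR adjusted p = 0.00416). Tjp1, or ZO-1, rose by 0.58 (SE 0.19, adjusted p = 0.0458), with total replicate 1 at 37.3 CPM beside 37.2 CPM in the lowest cortical library, and by 0.96 without that library. Among 19 adherens junction genes, 1 rose and 1 fell (median 0.23): the p120 catenin Ctnnd1 at 0.68 (SE 0.13) and Pdlim7 at -0.40 (SE 0.11). With the length trend removed, the median of this list was -0.05.

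Basement membrane and wound matrix genes had 8 of 26 higher and 0 lower (median 0.27). Their median coding length was 4917 bases, and 31.3% of all genes with 4000 to 8000 coding bases were higher. With the length trend removed, 3 of the list were higher and 0 lower (median 0.07). Col7a1, the anchoring fibril collagen, rose by 0.91 log2 units, the heparan sulphate proteoglycan Hspg2 by 0.93 (SE 0.17), the basement membrane gene Fras1 by 0.92 (SE 0.21) and the laminin chains Lama5 by 0.73 and Lama3 by 0.56. Tnc, a matrix protein of wounds, was called but rested on 0, 4 and 1 counts in total and 38, 29 and 16 counts in cortical libraries. Among 29 integrin and focal adhesion genes, 4 rose and 1 fell (median 0.20). Col17a1, the hemidesmosomal collagen, rose from 238, 184 and 181 to 340, 332 and 338 CPM (log2 fold change 0.75, SE 0.12, edgeR adjusted p = 0.000757). Itga6, its integrin partner, gave 0.51 (SE 0.11), Tln1, or talin, 0.53 (SE 0.14) and Zyx, or zyxin, -0.34 (SE 0.10). With the gene length trend removed, Itga6 and Tln1 each gave 0.24 (edgeR adjusted p = 0.158 and 0.312).

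Cytoskeletal genes went in both directions. Of 42 actin, myosin and spectrin genes, 11 rose and 8 fell (median 0.14). The myosin heavy chains were higher: Myh14 read 144, 133 and 144 CPM in total and 302, 326 and 299 CPM in cortical libraries (log2 fold change 1.14, SE 0.13, edgeR adjusted p = 0.000106), and Myh9 gave 0.85 (SE 0.13). The light chain Myl6 went the other way, from 897, 1381 and 1456 to 617, 608 and 603 CPM (-1.03, SE 0.15, adjusted p = 0.000545). Small actin regulators were also lower, Cfl1, or cofilin, at -0.77 (SE 0.12) and Pfn1, or profilin, at -0.65 (SE 0.12). Of 36 microtubule and motor genes, 8 rose and 0 fell (median 0.29), led by the scaffold Akap9 at 1.36 (SE 0.15), Clasp2, which steadies microtubule ends, at 1.06 (SE 0.20), and the dynein heavy chain Dync1h1 at 0.74 (SE 0.13). Of 16 keratins, 0 passed in either direction by edgeR, and the median was 0.00.

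Among regulatory genes, chromatin regulators had 20 of 42 higher and 0 lower (median 0.53), and 8 were called higher with the length trend removed. Bcor, a Polycomb corepressor, read 5.1, 5.0 and 5.64 CPM in total and 16.7, 15.1 and 25.1 CPM in cortical libraries (log2 fold change 1.85, SE 0.22, edgeR adjusted p = 0.000119). The acetyltransferase Ep300 gave 1.59 (SE 0.24) and the histone methyltransferase Setd1a 1.42 (SE 0.28), Kmt2d 0.98 and the demethylase Kdm6b 0.87. Notch pathway genes, which steer keratinocyte differentiation, had 7 of 16 higher and 0 lower (median 0.49). The ligand Jag2 read 144, 109 and 99.7 CPM in total and 246, 261 and 233 CPM in cortical libraries (1.07, SE 0.13, adjusted p = 0.000145), and the receptor Notch1 gave 0.89 (SE 0.11) and the ligand Jag1 0.96 (SE 0.20).

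Of 46 genes for mRNA-binding proteins, 10 rose and 0 fell (median 0.27), among them all 3 of the YTHDF readers of methylated adenosine, Ythdf2 at 0.90, Ythdf3 at 0.63 and Ythdf1 at 0.62, and the Pumilio repressor Pum2 at 0.69. Of 27 early response genes, 5 rose and 0 fell (median 0.22). Ier5 gave 0.87 (SE 0.16) and Zfp36, which destabilises cytokine mRNAs, 0.85 (SE 0.13). Nr4a1 read 0.415, 3.43 and 2.82 CPM in total and 9.45, 4.59 and 6.86 CPM in cortical libraries (log2 fold change 1.65, SE 0.46), falling to 1.16 without total replicate 1. Of 284 zinc finger Zfp genes, 26 rose, a share near the 7.62% of all genes tested, and 8 fell, a share below the 8.03%. In the table's transcription factor column, 77 of 838 genes rose and 16 fell, 9.19% and 1.91%, where the background was 7.62% and 8.03%.

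Genes lower in the cortical fraction had short coding sequences and high levels: the median coding length was 597 bases and the median wounded total level 57.0 FPKM, against 1386 bases and 3.77 FPKM over the protein-coding genes tested. Nuclear-encoded respiratory chain subunits had 56 of 79 lower and 0 higher (median -0.72). Ndufa5, of complex I, read 313, 691 and 876 CPM in total and 294, 273 and 305 CPM in cortical libraries (log2 fold change -1.11, SE 0.25, edgeR adjusted p = 0.00679). Atp5k, of the ATP synthase, read 171, 322 and 353 against 137, 81.8 and 141 CPM (-1.23, SE 0.29, adjusted p = 0.00863). Mitochondrial ribosomal proteins had 43 of 77 lower and 0 higher (median -0.46), and the mRNAs made inside mitochondria 6 of 13 lower and 0 higher (median -0.58). With only the wounded groups in the fit, 38 respiratory chain subunits, 24 mitochondrial ribosomal proteins and 1 of the mRNAs made inside mitochondria were lower.

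Cytosolic ribosomal proteins had 27 of 83 lower and 0 higher (median -0.39), and 5 lower with only the wounded groups in the fit. Their summed level overlapped, at 199665 to 289825 CPM in total and 191175 to 205972 CPM in cortical libraries. Rps29 led the called ribosomal genes at -1.06 (SE 0.25), with 1009, 1540 and 1435 CPM in total and 699, 457 and 761 CPM in cortical libraries. Ribosomal protein genes have many processed pseudogenes, so their reads may be split. Proteasome subunits had 12 of 36 lower and 0 higher (median -0.33), led by Psmd11 at -0.82 (SE 0.12), and 5 lower with only the wounded groups in the fit. Their sums overlapped too, at 8623 to 12940 CPM in total and 8622 to 8832 CPM in cortical libraries. Translation factors had 4 higher and 7 lower of 41 (median -0.03): the scaffold Eif4g1 rose by 0.49 and the poly(A)-binding protein Pabpc1 by 0.43, while Eif3g was at -0.71 and Eif4ebp1 at -0.58. The early secretory pathway had 4 higher and 7 lower of 51 (median 0.08), where 7.62% of all genes tested were higher and 8.03% lower. Within the translocon the channel subunit Sec61a1 was at 0.59 (SE 0.19) and its small partners Sec61g at -0.96 (SE 0.21) and Sec61b at -0.62 (SE 0.13).

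Genes for antimicrobial peptides and alarmins had 8 of 18 lower and 0 higher (median -0.85). Defb14, a beta-defensin, read 5.93, 14.8 and 13.6 CPM in total and 3.18, 2.96 and 5.93 CPM in cortical libraries (log2 fold change -1.51, SE 0.37, edgeR adjusted p = 0.0119). BC100530 fell the most among genes that averaged at least 100 counts and passed the naming rule, at -1.85 (SE 0.53, adjusted p = 0.0269); it has near-identical neighbours, so its value is uncertain, and with the length trend removed the adjusted p was 0.0558. S100a8 rested on 0, 17 and 27 counts in total and 1, 0 and 0 counts in cortical libraries. The calcium-binding S100a10 gave -0.79, S100a16 -0.77 and S100a14 -0.57. Cornified envelope and late differentiation genes had 5 of 23 lower and 0 higher (median -0.34). Krtdap, a secreted differentiation product, read 1803, 3388 and 4079 CPM in total and 1578, 1536 and 1577 CPM in cortical libraries (-0.98, SE 0.21, adjusted p = 0.00456), with total replicate 1 the nearest to the cortical level. The interferon-induced ubiquitin-like Isg15 was at -1.21 (SE 0.21) and the hypoxia-induced mitochondrial Higd1a at -1.21 (SE 0.18), and Hba-a1, at -1.19 (SE 0.36), has a near-identical copy.

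**Figure D3:**
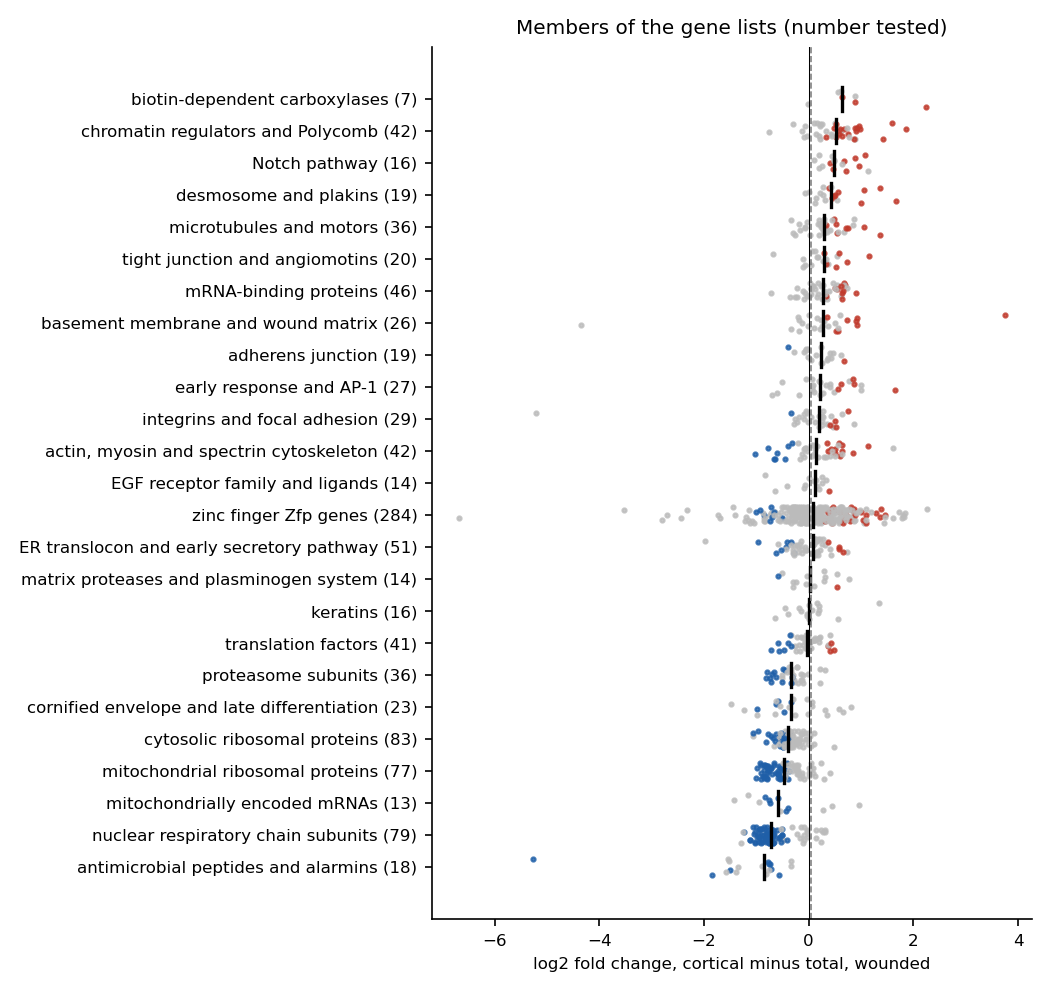
Log2 fold change, cortical minus total, of the members of each gene list in wounded cells, with the number tested after each name; points are genes (red called higher, blue called lower, grey not called), black bars are list medians and the dashed line is the median of all genes, 0.04. Medians run from -0.85 for antimicrobial peptides and alarmins to 0.64 for biotin-dependent carboxylases.

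Of 14 EGF receptor family and ligand genes, 1 rose and 0 fell (median 0.12), and of 14 matrix protease and plasminogen genes 1 rose and 1 fell (median 0.03). Over all genes tested 7.62% rose and 8.03% fell, so 1 call among 14 genes is near the background.

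Without total replicate 1, where 12.1% of all genes were higher and 12.6% lower, most lists had more calls. Desmosome and plakin genes had 12 higher and 0 lower, tight junction genes 7 and 0, adherens junction genes 7 and 1, integrin and focal adhesion genes 9 and 2, and matrix genes 9 and 1. Actin, myosin and spectrin genes had 17 higher and 8 lower, microtubule genes 11 and 3, and keratins 1 and 2. Chromatin regulators had 30 higher and 0 lower, Notch pathway genes 9 and 0, mRNA-binding proteins 19 and 0, early response genes 9 and 1, and Zfp genes 31 and 16. Carboxylases kept 3 and 0, antimicrobial genes 0 and 8 and the EGF receptor list 1 and 0, while matrix proteases had 2 and 1. On the depleted side, respiratory chain subunits had 3 higher and 61 lower, mitochondrial ribosomal proteins 2 and 53, mitochondrially encoded mRNAs 1 and 9, cytosolic ribosomal proteins 0 and 66, proteasome subunits 0 and 26, and cornified envelope genes 2 and 9. Translation factors had 6 higher and 8 lower and the early secretory pathway 11 and 13.

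The difference between fractions varied with coding length. Among protein-coding genes with a coding sequence under 500 bases, 6 of 1044 were higher and 374 lower (35.8%), with a median log2 fold change of -0.45. From 1000 to 2000 bases the shares were 6.29% higher and 3.56% lower, and from 4000 to 8000 bases 31.3% and 0.283%. At 8000 bases and over, 56 of 117 were higher (47.9%) and 0 lower, with a median of 0.63. Across 11475 genes, which are not independent replicates, Spearman's correlation of coding length with the log2 fold change was 0.48, and 0.51 without total replicate 1. It was 0.23 for the 3′ untranslated region, 0.09 for the 5′ untranslated region and -0.02 for GC content of the coding sequence. In the unwounded cells the correlation with coding length was also 0.48.

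**Figure D4:**
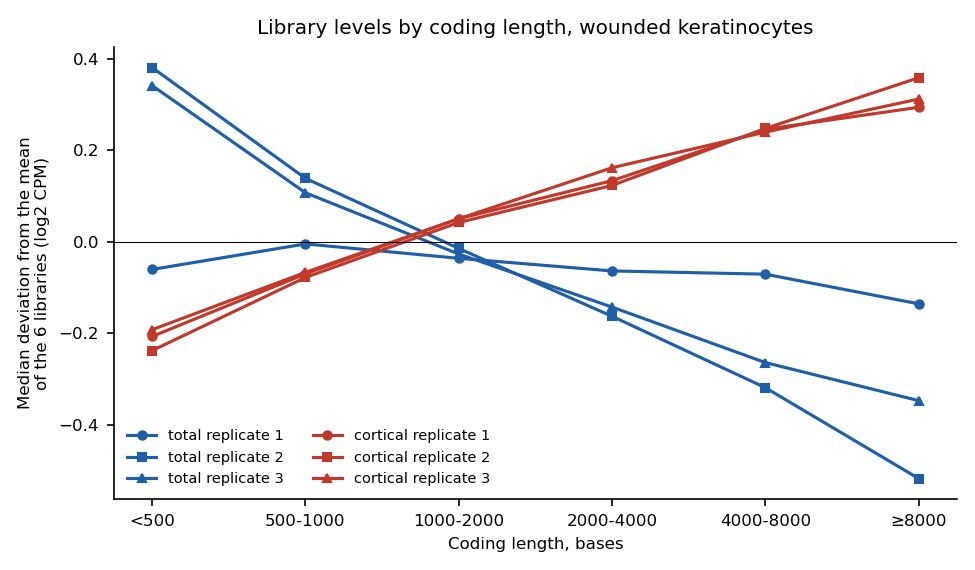
Median deviation of each wounded library from the mean of the 6 libraries (log2 CPM) by coding length in bases; each line is a library, blue for total and red for cortical. The 3 cortical libraries run together from about -0.2 to 0.3, total replicates 2 and 3 run the opposite way, and total replicate 1 stays between -0.14 and 0.00.

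Under 500 bases the cortical libraries deviated by -0.21, -0.24 and -0.19 from the mean of the 6, total replicates 2 and 3 by 0.38 and 0.34, and total replicate 1 by -0.06. Total replicate 1 thus lay close to the mean of the 6, and total replicates 2 and 3 did not. Among the 1090 genes called lower, total replicate 1 was the total library nearest the cortical ones in 826 (75.8%), and among the 1034 called higher in 444 (42.9%). Level went with the difference as well. At a mean of 100 FPKM and over, 311 of 566 protein-coding genes were lower and 4 higher, and those 4 were Atf4, Jup, Pabpc1 and Slc25a3, picked out after their values were seen. With the gene length trend removed, Atf4 and Jup were still called, and Pabpc1 (0.23, edgeR adjusted p = 0.104) and Slc25a3 (0.18, adjusted p = 0.197) were not.

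Removing a smooth trend on gene length from each library left 1459 genes called (10.8%), 365 higher (2.69%) and 1094 lower (8.06%), and these held 330 of the 1034 higher and 815 of the 1090 lower genes. Acaca (1.82), Ppp1r9b (1.54), Plec (0.93), Evpl (0.86), Jag2 (0.86) and Jup (0.29) were still called higher, and Ndufa5, Higd1a and Myl6 lower. Many genes named here lost the call, at edgeR adjusted p from 0.0505 (Nfkbia) to 0.655 (Neat1). On the higher side they were Dsp, Dsc3, Dsg1a, Dst, Tjp1, Itga6, Tln1, Hspg2, Fras1, Lama3, Dync1h1, Kmt2d, Mccc1, Pcca, Eif4g1, Pabpc1, Slc25a3, Sec61a1, Ythdf3, Nfkbia, Rnf11, Gm12184, Yod1 and Neat1, of which Dst (-0.08) and Neat1 (-0.07) changed sign. On the lower side they were BC100530, Hba-a1, S100a8, Cd68, 2610528A11Rik and mt-Nd5. Desmosome and plakin genes went from 9 to 5 called higher, chromatin regulators from 20 to 8, mRNA-binding proteins from 10 to 3 with 1 lower, and actin, myosin and spectrin genes from 11 to 2. Tight junction and angiomotin genes went from 6 to 2, Notch pathway genes from 7 to 4, and microtubule and motor genes from 8 to 4 with 2 lower. Integrin and focal adhesion genes went from 4 to 1 with 3 lower, while early response genes went from 5 to 6. The depleted lists changed little, with 54 respiratory chain subunits, 43 mitochondrial ribosomal proteins and 28 cytosolic ribosomal proteins lower. Their coding sequences are short, with medians of 432, 591 and 456 bases. The trend removed was on gene length, not coding length, and the variation with coding length shrank but remained. Under 500 coding bases the median log2 fold change went from -0.45 to -0.35, and at 8000 bases and over from 0.63 to 0.22. With the trend removed and total replicate 1 also left out, 2399 of 14073 genes were called (17%), 968 higher (6.88%) and 1431 lower (10.2%). What sets the trend was not tested.

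Some genes went against their length, and these too were picked out after their values were seen. The 6 short coding sequences that rose were Id2, an inhibitor of helix-loop-helix factors (0.68, SE 0.18), the transcription factor Mafg (0.57, SE 0.11), Rnf11, Gm12184, Smim3 and Tusc2. At 3000 bases and over, 5 genes were lower, among them 9530053A07Rik (-0.90, SE 0.13), at 38.9, 46.6 and 53.4 CPM in total and 24.4, 24.8 and 25.2 CPM in cortical libraries, and the corepressor Sin3b (-0.82, SE 0.14). The others were Naca, whose longest annotated coding sequence may not be the form made in these cells, Ttc21b, which lost its call without total replicate 1 (edgeR adjusted p = 0.0641), and Slc26a8, which rested on 15, 2 and 11 counts in total and 0 in all 3 cortical libraries. Of 385 long intergenic non-coding RNAs, 6 rose (1.56%) and 14 fell (3.64%), both below the 7.62% and 8.03% of all genes tested. Gm26917, at chr17:39843013-39846341, read 2.79, 2.86 and 4.48 CPM in total and 18.6, 20.4 and 17.8 CPM in cortical libraries (log2 fold change 2.49, SE 0.21). Whether its reads come from another RNA of the same sequence was not tested, so its value is uncertain. 2900097C17Rik gave 1.44 (SE 0.10) and Neat1, the RNA scaffold of nuclear paraspeckles, 0.38 (SE 0.10).

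The unwounded cells, measured the same way, had 1928 genes called (14.2%), 898 higher (6.62%) and 1030 lower (7.59%). Of the wounded calls 47.4% and of the unwounded calls 52.2% were shared in the same direction, 434 higher and 573 lower, and 2610528A11Rik and Yod1 were called in opposite directions. The ratio itself, wounded minus unwounded, differed for 17 genes (0.125%), 3 higher (0.0221%) and 14 lower (0.103%), so the 1115 genes called in wounded cells only are not shown to differ between the states, with 1 exception among the 17. Without wounded total replicate 1 this count was 413.

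Acaca was enriched in both states but less so after wounding. In unwounded cells it read 39.4, 36.9 and 41.8 CPM in total and 477, 467 and 462 CPM in cortical libraries, so every wounded cortical library was below every unwounded one (difference of log2 ratios -1.34, edgeR adjusted p = 0.00126). Prune2 (-1.46), the stress transcription factors Atf6b (-1.28), Atf6 (-1.04) and Atf4 (-1.05), the co-chaperone Bag3 (-1.07), Ppp1r13l (-0.91), Ythdf1 (-0.85) and Pum2 (-0.81) likewise remained cortical after wounding, with a smaller ratio. So did Nfkbia, the NF-kappaB inhibitor, at 0.42 in wounded and 1.76 in unwounded cells (-1.33).

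The keratins Krt6b and Krt16, which epidermis makes after injury, had log2 fold changes of 1.30 and 0.87 in unwounded cells and of 0.00 and -0.02 in wounded cells (differences -1.30 and -0.89, edgeR adjusted p = 0.0325 and 0.0396). Krt78 went from 1.71 to -0.40 (-2.11, adjusted p = 0.0325). Krt16 read 475, 610 and 648 CPM in wounded total and 564, 536 and 606 CPM in wounded cortical libraries, which overlap, and 177, 167 and 162 against 318, 311 and 296 CPM in unwounded cells, which do not.

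**Figure D5:**
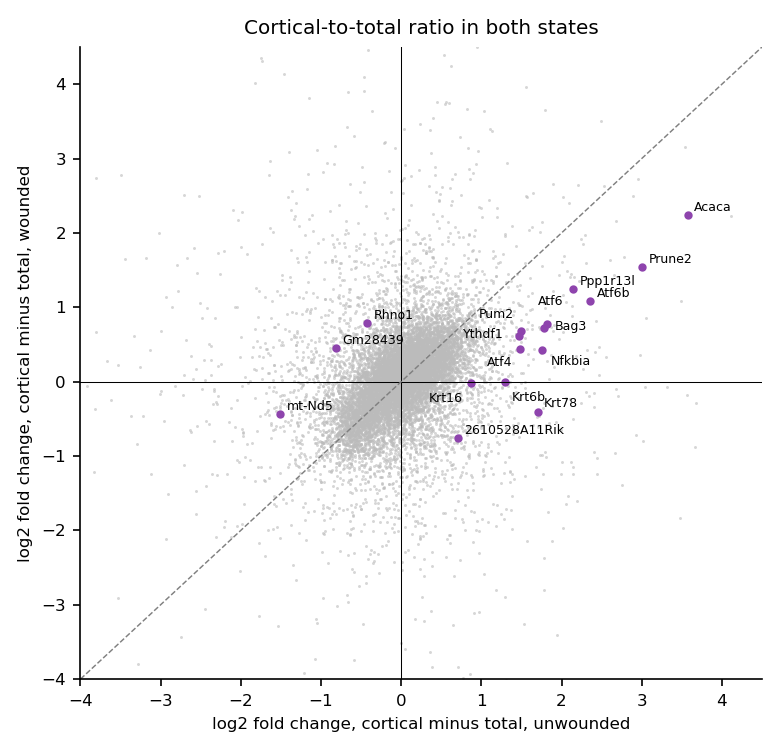
Log2 fold change, cortical minus total, in unwounded (horizontal) and wounded (vertical) cells; each point is a gene, the dashed line marks equal values, purple points are the 17 genes whose ratio differed by test, and 90 genes lie outside the range of -4 to 4.5. Of the purple points 14 lie below the dashed line, Acaca farthest to the right, and 3 above it.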

How the data were processed

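The authors deposited raw counts per gene and FPKM values for 12 libraries, per the file headers; the submitters' processing notes name CASAVA, HISAT2 and mm10, while versions and the counting tool are not given in the sources used here. Libraries were poly-T selected and non-directional per the labels, so antisense partners cannot be told apart. The 4 groups have 3 libraries each, labelled as biological replicates; whether they came from separate cultures is not stated, so p-values measure only the spread between these libraries. Of 54532 identifiers, 54409 were in GENCODE M21, 98.3% at the same position.

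The tests ran in edgeR 4.0.16 under R 4.3.3 (filterByExpr, TMM, 1 quasi-likelihood fit over all 12 libraries, two-sided F test, Benjamini-Hochberg over 13571 genes, threshold 0.05); DESeq2 1.42.0 and limma 3.58.1 (log2 of FPKM plus 1 or 0.1) served as alternatives. Figures used python 3.11.15 and matplotlib 3.10.9. The length trend was a loess (span 0.5) on gene length per library. CPM uses TMM library sizes. Summed marker levels use the deposited FPKM. The members and lists were chosen with earlier results of these data known.

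Named genes are protein coding, average at least 100 counts over the wounded libraries, are called with and without wounded total replicate 1, and have libraries that do not overlap, the 15 largest changes each way, of which 1 is not reported here. Dsp, up to 3 called members each way per list and up to 5 interaction genes each way (a mean of at least 100 counts) were added. Further list members, the other carboxylases and the other interaction genes were named after their values were seen, and symbols in the lists were matched to the table's older names after it was opened. Coding length is that of the longest complete coding sequence. An earlier choice took the APPRIS principal transcript, and it was replaced after the short coding sequences called higher had been seen, because Ahnak was assigned a short one; both are compared in the closing section. Columns of per-sample values that were not used: 0. In simulated counts of 13234 genes, 200 of them changed, edgeR found 55% of the changed genes and 2.66% of its calls were false; DESeq2 found 64%, with 19.5% false. Unlike the data, these counts held no length trend and no library that stood apart as wounded total replicate 1 does. The simulated shares therefore do not give the error rate of the calls made here. With no gene changed but a length bias put into the wounded cortical libraries, edgeR called 2788 of 13140 genes, all of them false. With the length trend removed it called 0. The bias was put in along gene length, the same length that the removal uses, so this 0 does not measure how well the removal works in the data. The strength of that bias was set, not fitted to the data.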

Additional observations from a re-analysis of the deposited data

Results flagged for a closer look

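The cortical-to-total ratio differed between wounded and unwounded cells, by edgeR's test of the difference itself, for 17 genes. The differences of log2 ratios, wounded minus unwounded, that were higher were 1.27 for Gm28439, an unprocessed pseudogene, 1.21 for Rhno1 and 1.07 for mt-Nd5. Those that were lower and largest were -2.11 for Krt78, -1.48 for 2610528A11Rik, -1.46 for Prune2, -1.34 for Acaca and -1.33 for Nfkbia. Gm28439 was not called between the fractions in wounded cells (log2 fold change 0.45, edgeR adjusted p = 0.0756). The difference for Rhno1 was at the edge of the threshold (edgeR adjusted p = 0.0498). Rhno1, of the DNA damage response, read 16.1, 20.2 and 24.9 CPM in wounded total and 32.1, 37.2 and 36.1 CPM in wounded cortical libraries, against 42.6, 38.9 and 30.9 and 28.7, 28.6 and 26.3 CPM in unwounded cells. The mitochondrial mRNA mt-Nd5 was lower in the cortical fraction in both states, by a log2 fold change of -0.43 after wounding and -1.51 before it. With the length trend removed, its value after wounding was -0.32 and not called (edgeR adjusted p = 0.0631).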

How the results depend on the processing

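The comparison of 2124 genes gave 4441 with voom quality weights, 970 with only the wounded groups in the fit, 1365 with the length trend removed and the replicate block, 248 at 1 log2 unit, and 2399 with the length trend removed and wounded total replicate 1 left out, a pair of choices added after seeing the data. Leaving out each library in turn gave 1084 (without wounded total replicate 2) to 3475 (without wounded total replicate 1). The 17 genes of the wounded-minus-unwounded ratio became 11 by library size, 138 with no filter, 72 by DESeq2, 10 by limma on FPKM with either pseudocount, 855 with voom weights, 30 with the length trend removed, with or without the block, and 477 with the length trend removed and wounded total replicate 1 left out; leaving out each library in turn gave 4 to 413. With the replicate block the counts were 1985, of which 1923 were shared, and 10. Same-numbered deviations correlated at -0.0125, -0.0114 and -0.0130 across 10394 genes, so no pairing by number was seen. With 3 libraries per group and wounded total replicate 1 standing apart, these values cannot settle if the fractions were paired. The labels do not state the pairing. Library size scaling gave 2723 calls, 2203 higher and 520 lower, and moved the median of all genes by 0.211. No gene named by the stated rules changed direction in any alternative. Over 112 results, with Acaca and Prune2 entered for the ratio as well, 2588 values kept their call and 424 lost it, 30 of them with the length trend removed. Genes named after their values were seen are outside this tally, and of these Dst and Neat1 changed sign with the length trend removed. List medians changed sign for keratins in several settings, for translation factors by library size and without wounded total replicate 2, for the early secretory pathway without wounded total replicate 2, wounded total replicate 3 or wounded cortical replicate 1, and for 6 of 25 lists with the length trend removed (adherens junction, integrins, actin and myosin, EGF receptor, matrix proteases, early secretory pathway). The coding length rule was changed after its results were seen: the earlier rule gave a Spearman correlation of 0.476, as did the later one, 389 of 1088 short coding sequences lower and 8 higher, against 374 of 1044 and 6, and 55 of 115 against 56 of 117 higher at 8000 bases and over; 1651 genes differed in length between the rules.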
